A study of Mus musculus with 6 samples.

Results

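Genes for 9 subunits of Polycomb repressive complex 1 (PRC1) were followed across 3 derivatives of one mouse cell line. The subunits were Ring1, Rnf2, Bmi1, Pcgf2, Pcgf6, Cbx2, Cbx8, Phc1 and Rybp, taken by gene symbol from the deposited expression tables. All 9 were listed among the 14082 genes that both tables share. The cells were NE-4C, a mouse neural stem cell line described as p53-deficient, grown in serum. Every group lacked the endogenous H3f3a gene, which like H3f3b encodes histone H3.3, and stably expressed an HA-tagged H3.3 in its place. H3.3WT cells carried the wild-type protein. Cbfa2t2_KO cells lacked the corepressor gene Cbfa2t2 as well and carried the same wild-type protein. H3.3K27M cells were the H3f3a knockout with H3.3 in which lysine K27 is replaced by methionine. Each group had 2 poly(A) RNA-seq libraries, the second labelled a repeat. The sources used here do not say whether a line is 1 clone or a pool, nor whether repeats are separate cultures. The p-values below therefore reflect the spread among these samples alone, and that spread may be technical.

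PRC1 is a chromatin complex that attaches ubiquitin to histone H2A and helps keep developmental genes silent. Every form of it is built on RING1 or RING2 (the product of Rnf2), the E3 ligases, bound to one PCGF protein. Canonical complexes hold Pcgf2 or Bmi1 together with a CBX protein, whose chromodomain binds H3K27me3, and a PHC protein, whose SAM domain polymerises. Variant complexes hold RYBP or YAF2 in place of CBX and can be recruited without H3K27me3. The K27M form of H3 is known to inhibit PRC2, the enzyme complex that writes H3K27me3. In neural progenitors PRC1 is best known for restraining Cdkn2a and for the timing of neurogenesis.

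Values are FPKM, mapped fragments scaled by transcript length and library size, so levels of different genes can be set side by side on this scale. The FPKM of a library summed to between 363586 and 419389. No counts were given and the low values are not whole multiples of a step, so the read depth is unknown and no counting interval is given. Differences are limma estimates on log2(FPKM + 1) with their SE, with p-values adjusted over all genes tested, and this scale understates the change of low genes. In bulk RNA, less transcript per cell and fewer cells that express a gene cannot be told apart. Cbfa2t2 itself had low values throughout, at 1.38 and 1.35 FPKM in H3.3WT, 1.02 and 0.769 in the libraries labelled Cbfa2t2_KO, and 2.02 and 0.855 in H3.3K27M. The difference of the libraries labelled Cbfa2t2_KO from H3.3WT was -0.32 ± 0.16 (adjusted p = 0.153), so this level does not by itself check the label. H3f3b, which the labels do not name as deleted, stood at 171 and 200 FPKM in H3.3WT, 154 and 136 in Cbfa2t2_KO and 120 and 135 in H3.3K27M. Neither of its differences from H3.3WT passed (-0.36, adjusted p = 0.095, and -0.54, adjusted p = 0.056). H3f3a stood at 131 and 181 FPKM in H3.3WT, 82.1 and 66.3 in Cbfa2t2_KO and 77.3 and 66.8 in H3.3K27M. It was thus lower in both derived lines than in H3.3WT (-1.05 ± 0.19, adjusted p = 0.0050, and -1.09 ± 0.20, adjusted p = 0.0071). Leaving out H3.3WT replicate 2 took the H3.3K27M difference to -0.86 (adjusted p = 0.067). RNA of the introduced and the deleted copy cannot be told apart by gene, and the part of this difference in the results below was not tested.

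Both derived lines were compared with H3.3WT to ask how RNA of the PRC1 subunits differed after loss of Cbfa2t2 or with H3.3K27M. In Cbfa2t2_KO 5 of the 8 members tested fell (Rybp, Cbx8, Pcgf6, Ring1 and Cbx2) and 1 rose (Phc1), where 21.5% of all 11626 genes tested were called lower and 13.1% higher. The median over the 8 members was -0.50, against -0.11 over all genes. In H3.3K27M 2 of 8 fell (Cbx8 and Cbx2) and none rose (0 also at an unadjusted p under 0.05 in limma), where 17.8% of 11623 genes were called lower and 8.42% higher. There the median over the members was -0.23, against -0.12 over all genes. Testing needed an average of 1 FPKM or more over the libraries of a comparison, which 8 members reached. Bmi1, the ninth, was below that level in both comparisons. Both comparisons use the same 2 H3.3WT libraries. Medians of all genes moved to 0.00050 and 0.0050 with median-of-ratios scaling, and the share of calls that were higher went from 37.9% to 50.8% in Cbfa2t2_KO and from 32.1% to 49.0% in H3.3K27M, so differences near -0.11 lie at the level of the whole library.

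**Figure D1:**
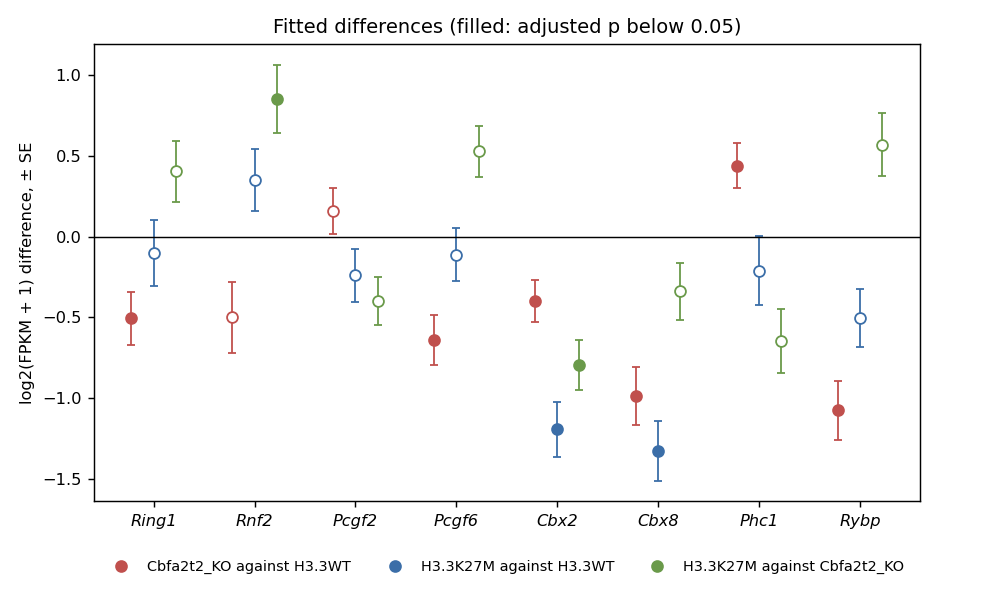
Fitted differences in log2(FPKM + 1) with SE (vertical axis) for the 8 tested PRC1 subunit genes (horizontal axis) in 3 comparisons, with filled points where the adjusted p was below 0.05. Cbx8 and Cbx2 are filled below 0 for both lines against H3.3WT, and Rybp is lowest in Cbfa2t2_KO at -1.08.

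The catalytic subunits were lower in Cbfa2t2_KO than in H3.3WT, by a called difference for Ring1 only. Ring1 (ENSMUSG00000024325; GRCm38 chromosome 17, 34020792 to 34024680, reverse strand) encodes RING1, the less expressed of the 2 E3 ligases here. It stood at 2.9997 and 2.91 FPKM in H3.3WT, 1.76 and 1.81 in Cbfa2t2_KO and 2.22 and 3.23 in H3.3K27M. Both Cbfa2t2_KO libraries lay below all others, and the H3.3K27M libraries spanned the H3.3WT values. The fall in Cbfa2t2_KO was -0.51 ± 0.16 (adjusted p = 0.046), and it did not pass when any one of the 4 libraries was left out (adjusted p = 0.118 to 0.142) or with median-of-ratios scaling (adjusted p = 0.083). In H3.3K27M the difference from H3.3WT was -0.10 ± 0.20 (adjusted p = 0.741), with its sign turned by median-of-ratios scaling (0.013), quantile normalization (0.030) and correction for GC content and length (0.076), and without H3.3K27M replicate 1 (0.096). The 250 bases before the Ring1 start, shown because their CpG content was the highest of the members with an entry, are chr17:34024681-34024930 on the reverse strand (RefSeq, GRCm38.p6).
Ring1: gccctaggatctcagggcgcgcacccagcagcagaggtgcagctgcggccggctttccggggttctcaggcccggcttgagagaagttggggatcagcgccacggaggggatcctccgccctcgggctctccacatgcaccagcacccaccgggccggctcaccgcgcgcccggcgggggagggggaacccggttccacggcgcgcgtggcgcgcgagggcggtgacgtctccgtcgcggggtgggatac
They hold 30 CpG dinucleotides, against a median of 6 over 32851 windows of the same length before RefSeq gene starts.

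Rnf2 (ENSMUSG00000026484; chromosome 1, 151458004 to 151500955, reverse strand) encodes RING2, the main ligase of PRC1 in many cell types. It stood at 9.40 and 12.5 FPKM in H3.3WT, 8.92 and 6.06 in Cbfa2t2_KO and 13.8 and 14.4 in H3.3K27M. The 3 groups did not overlap, with Cbfa2t2_KO lowest and H3.3K27M highest, but neither difference from H3.3WT passed (-0.50 ± 0.22, adjusted p = 0.111, and 0.35 ± 0.19, adjusted p = 0.200). Set directly against each other in a fit of all 6 libraries, H3.3K27M was higher than Cbfa2t2_KO by 0.85 ± 0.21 (adjusted p = 0.044). With GC content and length corrected for, Rnf2 differed from H3.3WT by 0.070 in H3.3K27M (adjusted p = 0.740) and by -0.46 in Cbfa2t2_KO (adjusted p = 0.049), and the lines differed by 0.53 (adjusted p = 0.058). The call between the lines was also lost when any one of the 6 libraries was left out, the H3.3WT libraries included, with adjusted p = 0.054 to 0.276. The largest of these came without Cbfa2t2_KO replicate 2, the library with the lowest Rnf2, where the difference was 0.61. Exons of Rnf2 share 158 bases with Trmt1l on the opposite strand, and the strand of the libraries is not stated, so reads there cannot be told apart.

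**Figure D2:**
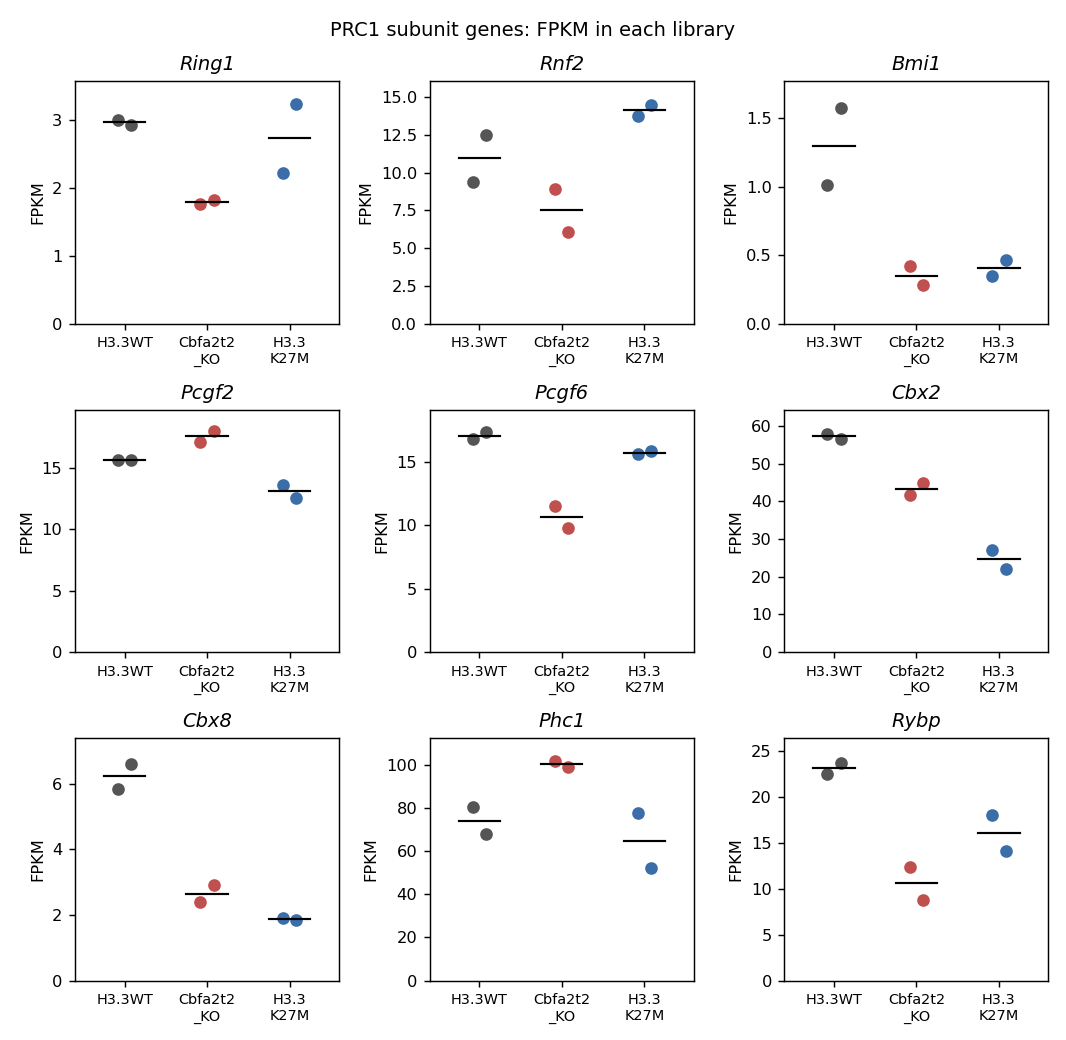
FPKM (vertical axes, linear from 0) of the 9 PRC1 subunit genes in each library of H3.3WT, Cbfa2t2_KO and H3.3K27M (points), with group means as lines. Ring1, Pcgf6 and Rybp are lowest in Cbfa2t2_KO, whereas Cbx2 and Cbx8 are lowest in H3.3K27M, where Cbx2 stood at 26.99 and 22.2.

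Among the PCGF genes, Pcgf6 fell in Cbfa2t2_KO and Pcgf2 did not pass the test in either line. Pcgf6 (ENSMUSG00000025050; chromosome 19, 47033617 to 47050906, reverse strand) defines the variant complex that holds MGA, MAX, L3MBTL2 and E2F6. It stood at 16.8 and 17.3 FPKM in H3.3WT, 11.5 and 9.78 in Cbfa2t2_KO and 15.6 and 15.8 in H3.3K27M. The Cbfa2t2_KO libraries were far below the other 4, which lay close together. The fall was -0.64 ± 0.16 (adjusted p = 0.017) and did not pass without H3.3WT replicate 2 (adjusted p = 0.067) or without Cbfa2t2_KO replicate 2 (adjusted p = 0.099). In H3.3K27M the difference was -0.11 ± 0.16 (adjusted p = 0.644), and it turned to 0.033 with median-of-ratios scaling and to 0.085 with quantile normalization. H3.3K27M against Cbfa2t2_KO gave 0.53 ± 0.16 (adjusted p = 0.070).

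Pcgf2 (ENSMUSG00000018537; chromosome 11, 97688823 to 97700497, reverse strand), which encodes MEL18 of canonical PRC1, varied little. Its values were 15.6 and 15.6 FPKM in H3.3WT, 17.1 and 18.0 in Cbfa2t2_KO and 13.6 and 12.6 in H3.3K27M. The groups did not overlap, yet the differences from H3.3WT, 0.16 ± 0.14 and -0.24 ± 0.17, did not pass (adjusted p = 0.419 and 0.310), nor did H3.3K27M against Cbfa2t2_KO at -0.40 ± 0.15 (adjusted p = 0.122). Bmi1 (ENSMUSG00000026739; chromosome 2, 18677018 to 18686629, forward strand), its paralogue and a classic repressor of Cdkn2a, was the least expressed member. It stood at 1.01 and 1.58 FPKM in H3.3WT, 0.417 and 0.285 in Cbfa2t2_KO and 0.351 and 0.468 in H3.3K27M. All 4 libraries of the derived lines lay below both H3.3WT libraries. The ratio of means to H3.3WT was 0.271 in Cbfa2t2_KO and 0.316 in H3.3K27M. With no minimum level, the differences were -0.75 ± 0.18 (adjusted p = 0.020) and -0.69 ± 0.19 (adjusted p = 0.034). At this level the unknown read depth limits what the values can carry.

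The windows before the starts of Bmi1 and Pcgf6 are shown because Bmi1 stood low in both derived lines and Pcgf6 in Cbfa2t2_KO. Bmi1 has chr2:18676768-18677017 on the forward strand and Pcgf6 has chr19:47050907-47051156 on the reverse strand (RefSeq, GRCm38.p6). Capitals mark CACGTG, the E-box bound by MAX dimers, or TCCCGC, a core of E2F6 sites, read on either strand.
Bmi1: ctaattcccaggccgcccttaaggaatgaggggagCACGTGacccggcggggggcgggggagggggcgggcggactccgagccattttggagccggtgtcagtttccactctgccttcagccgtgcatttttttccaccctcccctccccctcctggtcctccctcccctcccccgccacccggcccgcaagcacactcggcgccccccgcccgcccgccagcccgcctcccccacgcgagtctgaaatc
Pcgf6: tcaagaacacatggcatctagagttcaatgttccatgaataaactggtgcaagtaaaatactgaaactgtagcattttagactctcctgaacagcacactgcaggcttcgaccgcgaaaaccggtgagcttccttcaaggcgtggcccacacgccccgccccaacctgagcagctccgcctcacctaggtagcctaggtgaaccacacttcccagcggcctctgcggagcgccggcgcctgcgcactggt
The Bmi1 window holds 1 E-box and the Pcgf6 window holds neither motif. The window of Pcgf2, which was not called in any comparison, holds 1 E-box and 1 E2F6 core. That of Rnf2, not called against H3.3WT, holds 1 E2F6 core, and those of Ring1 and Phc1 hold neither motif. The Pcgf2 and Phc1 windows lie before RefSeq starts but within the GENCODE span of these reverse-strand genes. For Pcgf2 the window is chr11:97699649-97699898 and the gene runs to 97700497. For Phc1 the window is chr6:122340228-122340477 and the gene runs to 122340561. Among all 32851 windows of 250 bases, 6.02% hold the E-box and 16.9% the E2F6 core. A match describes the letters only.

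Cbx2 and Cbx8, CBX genes of canonical PRC1, fell in both lines. Cbx8 (ENSMUSG00000025578; chromosome 11, 119036305 to 119040969, reverse strand), a chromodomain subunit, stood at 5.83 and 6.61 FPKM in H3.3WT, 2.38 and 2.91 in Cbfa2t2_KO and 1.92 and 1.84 in H3.3K27M. The H3.3WT libraries were apart from all 4 others. The fall was -0.99 ± 0.18 in Cbfa2t2_KO (adjusted p = 0.0054), while H3.3K27M gave -1.32 ± 0.19 (adjusted p = 0.0028), with ratios of means of 0.425 and 0.302. Both calls held without each library in turn (adjusted p at most 0.033 and 0.028). Between the lines the difference was -0.34 ± 0.18 (adjusted p = 0.238). The sequence before the Cbx8 start, chr11:119040970-119041163 on the reverse strand (RefSeq, GRCm38.p6), is shown because this gene kept its call in both lines without any one library, and leaves out 56 bases of the window that GENCODE annotates as exon.
Cbx8: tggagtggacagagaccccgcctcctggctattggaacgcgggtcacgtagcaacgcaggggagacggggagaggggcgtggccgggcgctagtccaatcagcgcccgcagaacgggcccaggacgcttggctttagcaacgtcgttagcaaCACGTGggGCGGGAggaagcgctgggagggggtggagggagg
These 194 bases hold 1 E-box, 1 E2F6 core on the opposite strand (capitals, as for Bmi1; they do not overlap) and 18 CpG dinucleotides.

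Cbx2 (ENSMUSG00000025577; chromosome 11, 119022962 to 119031270, forward strand), whose protein compacts chromatin, was the most abundant of the CBX genes given here. It stood at 57.8 and 56.6 FPKM in H3.3WT, 41.7 and 44.8 in Cbfa2t2_KO and 26.99 and 22.2 in H3.3K27M. The 3 groups formed separate steps, with H3.3WT highest and H3.3K27M lowest. In H3.3K27M the fall was -1.19 ± 0.17 (adjusted p = 0.0030), kept without each library in turn (adjusted p at most 0.028). In Cbfa2t2_KO it was -0.40 ± 0.13 (adjusted p = 0.047), and did not pass without any one library (adjusted p = 0.115 to 0.168) or with median-of-ratios scaling, which gave -0.27 (adjusted p = 0.248). Cbx2 was lower in H3.3K27M than in Cbfa2t2_KO (-0.80 ± 0.15, adjusted p = 0.024), the 1 member called lower in that comparison, as Rnf2 was the 1 called higher. There 4.68% of 11601 genes were called lower and 3.12% higher. The Cbx2 call between the lines was lost without Cbfa2t2_KO replicate 1 (adjusted p = 0.069), Cbfa2t2_KO replicate 2 (adjusted p = 0.187) or H3.3K27M replicate 2 (adjusted p = 0.087).

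Cbx2 and Cbx8 are neighbours. The 2 genes are 5034 bases apart on chromosome 11. Cbx6 and Cbx7, which lie together on chromosome 15, both fell in Cbfa2t2_KO. Cbx6 stood at 19.0 and 23.2 FPKM in H3.3WT, 12.4 and 12.1 in Cbfa2t2_KO and 11.9 and 12.95 in H3.3K27M, and its falls of -0.73 ± 0.16 and -0.71 ± 0.18 passed (adjusted p = 0.011 and 0.022). Cbx7, at 19.7 and 15.1, then 10.2 and 11.3, then 16.8 and 14.5 FPKM in the same order, fell in Cbfa2t2_KO (-0.64 ± 0.17, adjusted p = 0.025) and differed by -0.14 ± 0.19 in H3.3K27M (adjusted p = 0.618), and H3.3K27M against Cbfa2t2_KO gave 0.50 (adjusted p = 0.108). The Cbx6 call was lost in Cbfa2t2_KO without H3.3WT replicate 2 (adjusted p = 0.061) or Cbfa2t2_KO replicate 2 (adjusted p = 0.066), and in H3.3K27M without any one of the 4 libraries (adjusted p = 0.058 to 0.168). In H3.3K27M it was lost as well with GC content and length corrected for (-0.45, adjusted p = 0.124), with median-of-ratios scaling (adjusted p = 0.053) and with quantile normalization (adjusted p = 0.064). In Cbfa2t2_KO the Cbx7 call was lost with both of these scalings (adjusted p = 0.053 and 0.060), and among the fits that leave out 1 library it held only without H3.3WT replicate 2 (otherwise adjusted p = 0.080 to 0.117). Exons of Cbx6 overlap those of Npcd on the same strand and exons of Cbx7 those of Apobec3 on the other, so these levels are uncertain to that extent.

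**Figure D3:**
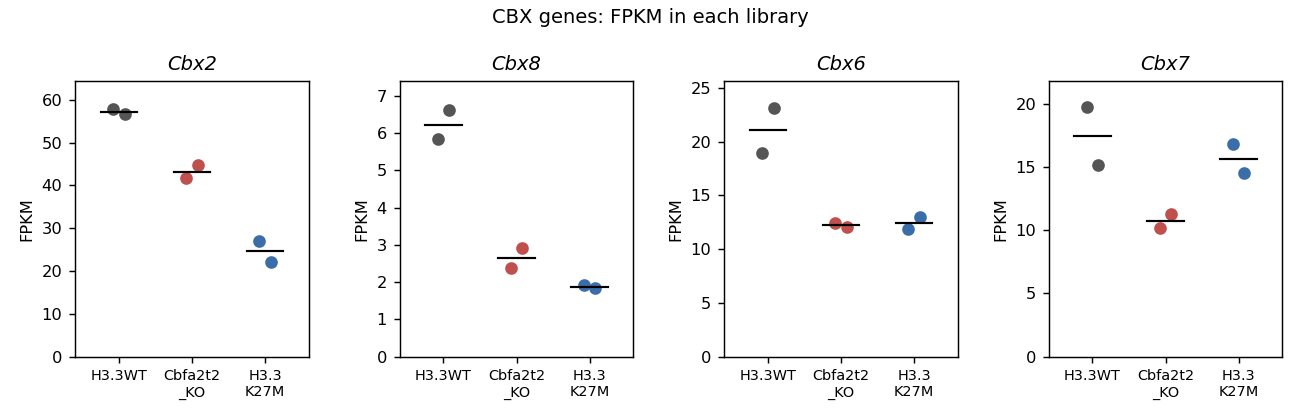
FPKM (vertical axes, linear from 0) of 4 CBX genes in each library (points) with group means (lines). Cbx2, Cbx8 and Cbx6 have both H3.3WT libraries above all 4 libraries of the other groups, whereas the Cbx7 values of H3.3K27M and H3.3WT overlap.

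Phc1 was the member that rose. Phc1 (ENSMUSG00000040669; chromosome 6, 122317731 to 122340561, reverse strand) encodes a polyhomeotic subunit of canonical PRC1 and was the most abundant of the 9, above 94.5% of listed genes in H3.3WT. It stood at 80.5 and 67.9 FPKM in H3.3WT, 102 and 99.2 in Cbfa2t2_KO and 77.7 and 52.3 in H3.3K27M. Both Cbfa2t2_KO libraries exceeded the rest, and the H3.3K27M libraries lay far apart and overlapped H3.3WT. The rise in Cbfa2t2_KO was 0.44 ± 0.14 (adjusted p = 0.044). It did not pass without H3.3WT replicate 2 (adjusted p = 0.223), Cbfa2t2_KO replicate 1 (0.137) or Cbfa2t2_KO replicate 2 (0.136), or in the fit of all 6 libraries (adjusted p = 0.122). In H3.3K27M the difference was -0.21 ± 0.22 (adjusted p = 0.498), and 0.072 without H3.3K27M replicate 2. Against Cbfa2t2_KO it was -0.65 ± 0.20 (adjusted p = 0.075), and passed without H3.3K27M replicate 1 (-0.93, adjusted p = 0.028).

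Rybp had the largest fall of the tested members in Cbfa2t2_KO on the fitted scale. By ratio of means it stood at 0.458 of H3.3WT, above Cbx8 at 0.425 and the untested Bmi1 at 0.271. With a pseudocount of 0.1, Cbx8 fell further than Rybp (-1.21 against -1.14). Rybp (ENSMUSG00000072872; chromosome 6, 100228565 to 100287485, reverse strand) encodes the subunit that marks variant PRC1 and stimulates its ligase. It stood at 22.5 and 23.7 FPKM in H3.3WT, 12.4 and 8.78 in Cbfa2t2_KO and 18.0 and 14.1 in H3.3K27M. The 3 groups did not overlap and Cbfa2t2_KO was lowest. The fall was -1.08 ± 0.18 (adjusted p = 0.0041), kept without each library in turn (adjusted p at most 0.031). In H3.3K27M the difference of -0.51 ± 0.18 did not pass (adjusted p = 0.070), although it passed without H3.3K27M replicate 1 (-0.67, adjusted p = 0.043) and with GC content and length corrected for (-0.63, adjusted p = 0.020). The lines were 0.57 ± 0.20 apart (adjusted p = 0.101). Yaf2, the paralogue that takes the place of RYBP in other variant complexes, moved differently between the lines. It stood at 18.9 and 21.3 FPKM in H3.3WT, 9.43 and 9.66 in Cbfa2t2_KO and 18.8 and 20.6 in H3.3K27M. It fell in Cbfa2t2_KO (-0.999 ± 0.15, adjusted p = 0.0026), was -0.03 ± 0.17 from H3.3WT in H3.3K27M (adjusted p = 0.922), and was higher in H3.3K27M than in Cbfa2t2_KO by 0.97 ± 0.15 (adjusted p = 0.014). The fall held without each library in turn (adjusted p at most 0.024). The call between the lines was lost without Cbfa2t2_KO replicate 1 (adjusted p = 0.058), Cbfa2t2_KO replicate 2 (0.107) or H3.3K27M replicate 2 (0.056).

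Because FPKM is per length, the make-up of each subunit position could be given as the share of each paralogue in the summed FPKM of its family. With 2 against 2 libraries the exact two-sided permutation test cannot go below p = 0.333, so shares are described by whether the libraries overlap. Groups that do not overlap give that same p in the permutation test, so overlap is a description here and not a test. Summed over Cbx2, Cbx6, Cbx7 and Cbx8, the CBX level went from 102 and 101.5 FPKM in H3.3WT to 66.7 and 71.0 in Cbfa2t2_KO and 57.6 and 51.45 in H3.3K27M. Within it Cbx2 made up 56.1% ± 0.54 (SD, n = 2) in H3.3WT and 62.8% ± 0.35 in Cbfa2t2_KO, while it was 45.0% ± 2.7 in H3.3K27M, with no overlap between groups. Cbx7 held 17.1% ± 3.1, 15.6% ± 0.42 and 28.65% ± 0.68, so it took a larger part of the CBX RNA in H3.3K27M than in any library of the other groups. The Cbx8 share was 6.10% ± 0.57, 3.83% ± 0.38 and 3.45% ± 0.16.

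At the PCGF position, Pcgf2 and Pcgf6 together carried most of the RNA of 6 genes. Pcgf2 held 34.7% ± 1.8 (SD, n = 2) in H3.3WT and 45.0% ± 3.5 in Cbfa2t2_KO, while it was 31.5% ± 1.8 in H3.3K27M, and Pcgf6 held 37.9% ± 1.1, 27.2% ± 2.0 and 37.8% ± 0.31. Pcgf6 was thus the leading PCGF gene by level in H3.3WT and H3.3K27M and Pcgf2 in Cbfa2t2_KO, and the Cbfa2t2_KO shares overlapped neither of the other groups. The remaining genes were lower, with Pcgf1 at 4.90 to 7.46 FPKM, Pcgf3 at 3.85 to 5.93 and Pcgf5 at 0.397 to 0.858 over the 6 libraries, and none of them was called. Pcgf5 averaged below the tested level. Bmi1 held 2.85% ± 0.74, 0.895% ± 0.20 and 0.983% ± 0.20. Of the ligase RNA, Rnf2 made up 78.4% ± 3.7 in H3.3WT and 80.2% ± 4.6 in Cbfa2t2_KO, while it was 83.9% ± 3.1 in H3.3K27M, with the Cbfa2t2_KO libraries overlapping both other groups. Phc1 made up 85.6% ± 1.7, 90.9% ± 0.38 and 84.3% ± 4.8 of the PHC RNA, which is Phc1 and Phc2 here, with Phc3 not listed. Rybp held 53.5% ± 1.3, 52.2% ± 6.4 and 44.8% ± 5.9 of the Rybp and Yaf2 RNA, and both H3.3K27M libraries (49.0% and 40.6%) lay below both H3.3WT libraries (54.4% and 52.6%). Their summed level was 41.4 and 45.0 FPKM in H3.3WT, 21.8 and 18.4 in Cbfa2t2_KO and 36.8 and 34.8 in H3.3K27M.

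**Figure D4:**
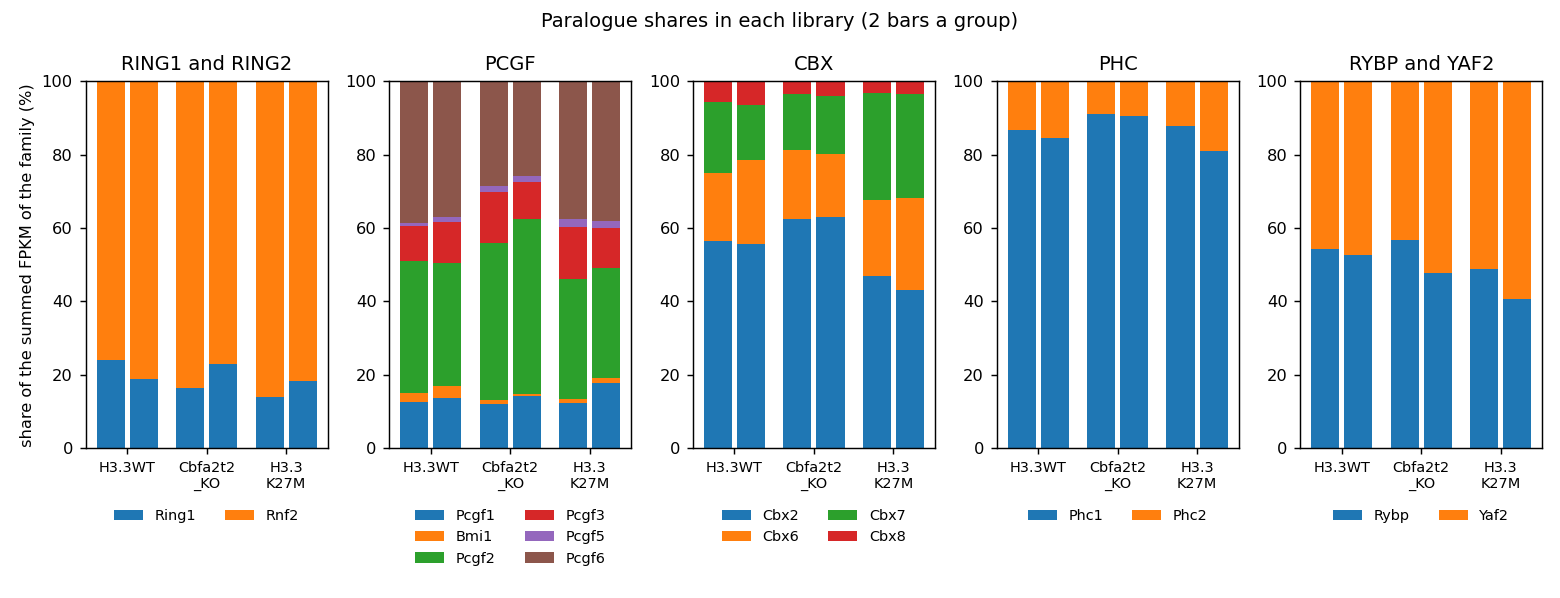
Share of each paralogue in the summed FPKM of its family (vertical axis, percent) in each library, 2 bars a group, for 5 subunit positions of PRC1. Cbx7 holds 29.1% and 28.2% of the CBX RNA in H3.3K27M, and Pcgf6 holds 28.6% and 25.8% of the PCGF RNA in Cbfa2t2_KO.

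The other genes around PRC1 were taken as 4 lists. Of 10 other core and canonical genes, 8 were listed and 7 tested. In Cbfa2t2_KO 3 fell (Yaf2, Cbx6 and Cbx7) and none rose (median -0.30), and in H3.3K27M 2 fell (Cbx6 and Scmh1) and none rose (median -0.093, near the median of all genes). Of 20 partners of variant PRC1, 7 fell and 3 rose in Cbfa2t2_KO (median -0.22), and 4 fell and none rose in H3.3K27M (Bcor, Bcorl1, Fbrsl1 and L3mbtl2, median -0.28). Beside the shares over all genes given above, the 3 that rose in Cbfa2t2_KO and the 4 that fell in H3.3K27M are near the background. For both lists the counts of 0 that rose were also 0 at an unadjusted p under 0.05 in limma. Bcor, a scaffold of the Pcgf1 complex, had the largest falls, from a mean of 36.3 ± 4.3 FPKM (SD, n = 2) in H3.3WT to 14.6 ± 1.9 in Cbfa2t2_KO (-1.26 ± 0.16, adjusted p = 0.0015) and to 13.7 ± 5.6 in H3.3K27M (-1.39 ± 0.26, adjusted p = 0.0069), and both calls held without each library in turn. L3mbtl2, a partner of PCGF6, went from 21.0 ± 4.3 to 12.4 ± 0.039 FPKM in Cbfa2t2_KO (-0.70 ± 0.17, adjusted p = 0.018), and Fbrsl1 also fell in both lines (-0.63 and -0.77). Bcorl1 fell in H3.3K27M (-0.86). Auts2, Csnk2b and Dcaf7, which belong to complexes with PCGF3 or PCGF5, rose in Cbfa2t2_KO (0.51, 0.49 and 0.48). Partners in these complexes did not move together, as Fbrsl1 and Csnk2a2 were called lower there (-0.63 and -0.54). Without one library at a time, the Cbfa2t2_KO calls of Fbrsl1, Auts2 and Dcaf7 were lost in each case (adjusted p = 0.057 to 0.143). Those of L3mbtl2 and Csnk2b held only without H3.3WT replicate 2 and H3.3WT replicate 1 (otherwise adjusted p = 0.069 to 0.162), and the H3.3K27M calls of Bcorl1, Fbrsl1 and Scmh1 held only without H3.3K27M replicate 1 (otherwise adjusted p = 0.084 to 0.158). With GC content and length corrected for, Fbrsl1 in H3.3K27M gave -0.40 (adjusted p = 0.082).

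Genes that remove the PRC1 mark or act beside it were called in both directions in Cbfa2t2_KO, where 21.5% of all genes were called lower and 13.1% higher. Of 5 tested genes of H2A deubiquitination, Asxl1, an activator of the BAP1 enzyme, fell in Cbfa2t2_KO (-1.01 ± 0.16, adjusted p = 0.0029) and H3.3K27M (-1.15 ± 0.20, adjusted p = 0.0061), both kept without each library, and Foxk2 rose in Cbfa2t2_KO (0.46, adjusted p = 0.038). In H3.3K27M 17.8% of all genes were called lower and 8.42% higher. Of 12 PRC2 genes, 10 did not pass in Cbfa2t2_KO and 11 in H3.3K27M, with medians of 0.042 and 0.015. The exceptions were Phf19, a PRC2 accessory gene that rose in Cbfa2t2_KO (1.24 ± 0.29, adjusted p = 0.015), Aebp2, which fell there (-0.69 ± 0.21, adjusted p = 0.038), and Ezh2, the methyltransferase gene, which rose in H3.3K27M (0.56 ± 0.18, adjusted p = 0.048). The calls of Foxk2 and Ezh2 were lost without any one library (adjusted p = 0.091 to 0.187). That of Phf19 was lost without Cbfa2t2_KO replicate 1 or 2 (adjusted p = 0.052 and 0.093), and that of Aebp2 held only without Cbfa2t2_KO replicate 1 (otherwise adjusted p = 0.067 to 0.185). Between the lines, 4.68% of all 11601 genes tested were called lower in H3.3K27M and 3.12% higher. Of 7 other core genes, 1 was called higher (Yaf2), and of 20 partners 2 were called lower (Fbrs and Dcaf7, -0.86 and -0.80, adjusted p = 0.046 and 0.027). None of the deubiquitination or PRC2 genes was called by limma. At an unadjusted p under 0.05 these were 1 of 5 and 4 of 12. The Fbrs call was lost with GC content and length corrected for (-0.50, adjusted p = 0.131), and among the fits that leave out 1 library it held only without H3.3K27M replicate 1, whereas the Dcaf7 call was lost without Cbfa2t2_KO replicate 1 or 2 or H3.3K27M replicate 2 (adjusted p = 0.094 to 0.151).

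**Figure D5:**
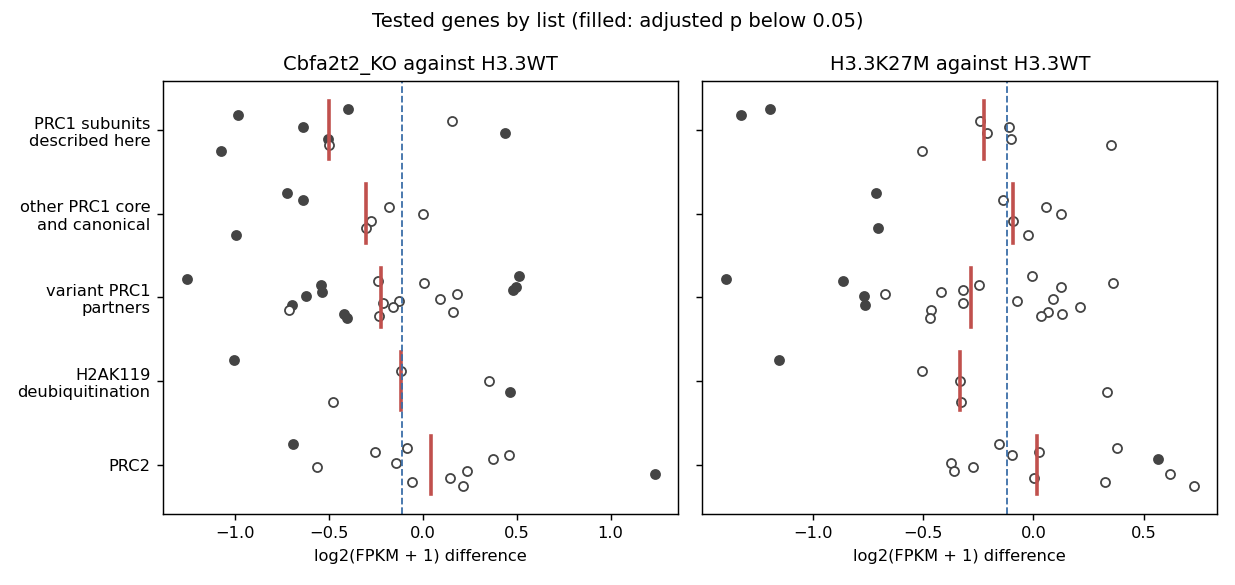
Difference in log2(FPKM + 1) from H3.3WT (horizontal axis) for every tested gene of 5 lists (rows), filled where the adjusted p was below 0.05, with list medians as red bars and the median of all genes as a dashed line. In Cbfa2t2_KO the medians of the PRC1 subunits and of the other core genes are -0.50 and -0.30, left of the PRC2 median of 0.042.

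Cdkn2a, the textbook PRC1 target, stood at 6.60 and 6.65 FPKM in H3.3WT, 53.3 and 60.3 in Cbfa2t2_KO and 12.2 and 17.6 in H3.3K27M. It was higher than in H3.3WT in both lines (2.92 ± 0.14, adjusted p = 0.00011, and 1.04 ± 0.21, adjusted p = 0.0097) and lower in H3.3K27M than in Cbfa2t2_KO (-1.88 ± 0.19, adjusted p = 0.0032). The H3.3K27M call was lost without H3.3K27M replicate 2 (adjusted p = 0.050), H3.3WT replicate 1 (0.057) or H3.3WT replicate 2 (0.059). Among the 11600 genes that averaged 1 FPKM or more over the 6 libraries, the closest in pattern to Ring1 by Pearson r of log2(FPKM + 1) were Enoph1, Pdgfa and Coq2 (0.996, 0.994 and 0.991). Those closest to Rnf2 were Abce1, Cep57 and Tmem30a (0.992, 0.992 and 0.991), and to Cbx2 Tchp, Rnf40 and Rffl (0.999, 0.997 and 0.997). With 6 points in 3 groups such values are common: 50, 117 and 302 genes reached 0.95 with Ring1, Rnf2 and Cbx2.

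Markers of the labelled cell type and of others were measured beside these results. Of 10 neural stem and progenitor markers 8 were listed, with Sox1 and Fabp7 not listed, and their summed level was 109 to 122 FPKM in H3.3WT, 78.8 to 90.2 in Cbfa2t2_KO and 108 to 118 in H3.3K27M. These sums hold members called in opposite directions. In Cbfa2t2_KO Vim and Prom1 rose (1.19 and 0.91) and Sox2, Hes1 and Nes fell (-1.50, -1.07 and -0.80), and in H3.3K27M Vim and Prom1 rose (1.68 and 0.99) and Nes and Msi1 fell (-1.20 and -0.69). The 3 of 6 neuronal markers listed in both tables summed to 70.2 to 71.7, 126 to 142.5 and 69.9 to 73.1 FPKM, and Map2, Dcx and Snap25 were not listed. Most of these sums was Tubb3, with group means of 68.2, 131 and 70.0 FPKM. Tubb3 and Syp rose in Cbfa2t2_KO (0.93 and 0.68). Rbfox3 went the other way, at -0.34 in Cbfa2t2_KO (adjusted p = 0.130 in limma), and fell in H3.3K27M (-0.74, adjusted p = 0.015). All 4 epithelial markers were listed and summed to 94.2 to 122 FPKM in H3.3WT, 198 to 213 in Cbfa2t2_KO and 182 to 183 in H3.3K27M. Epcam made up most of this, with group means of 66.5, 157 and 129 FPKM. Krt8, Epcam and Krt18 were called higher in both lines, Krt18 in H3.3K27M only narrowly (adjusted p = 0.04999 in limma). Cdh1 was called in neither, at -0.12 in Cbfa2t2_KO and 0.24 in H3.3K27M (adjusted p = 0.572 and 0.397 in limma). Astrocyte markers (2 of 5, without Gfap, Aqp4 and S100b) summed to 13.4 to 13.9, 9.41 to 9.92 and 11.4 to 13.35 FPKM, and mesenchymal markers (3 of 4, without Col1a1) to 9.94 to 11.2, 7.73 to 7.995 and 11.01 to 11.7. Of the 2 astrocyte markers, Aldh1l1 rose (1.09 and 1.04) and Slc1a3 fell (-1.26 and -0.63) in Cbfa2t2_KO and H3.3K27M. Pdgfrb fell in both lines (-1.02 and -0.77), and Col1a1, listed in the Cbfa2t2_KO table only, went from 0.339 and 0.285 FPKM in H3.3WT to 1.81 and 1.76 (1.09 ± 0.15, adjusted p = 0.0019). Oligodendrocyte markers (1 of 5) and endothelial markers (1 of 4) stayed at or below 2.91 and 0.689 FPKM, and none of the 4 microglial and leukocyte markers was listed. The part of these marker differences in the PRC1 results was not tested.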

How the data were processed

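Poly(A) RNA of 6 NE-4C libraries was sequenced. The deposited values are FPKM per gene, in 1 table for each comparison with H3.3WT, and the H3.3WT values of the 2 tables were identical for all 14082 shared genes. The submitters' processing notes name Trim Galore, HISAT2, StringTie, DESeq and GRCm38. Their versions and the annotation release are not given in the sources used here. H3.3K27M columns carry only the letter M and were assigned on it, with replicate numbers by column order. Positions come from GENCODE vM21, which holds 14646 of 14667 gene IDs.

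Genes that averaged 1 FPKM or more across a fit were tested with limma 3.58.1 (R 4.3.3) on log2(FPKM + 1), with a mean-variance trend and two-sided p-values under Benjamini-Hochberg adjustment at 0.05. Each line was fitted with H3.3WT alone (4 libraries), and the lines were compared in a fit of all 6. The procedure was also run on simulated data whose spread was drawn from the same limma model. Such a run cannot check that model against these libraries. Members and lists were chosen with earlier results of these data known. From the other lists, at most 3 called genes per list and direction were named by size of change, plus paralogues of the members. L3mbtl2 in H3.3K27M and Csnk2a2 in Cbfa2t2_KO were named beyond this rule. For these calls no fit that leaves out a library is given. CBX shares are over the 4 genes named with them, and 1 item is not reported here. Alternatives were the pseudocount, the level filter, the scaling, the eBayes settings, a GC and length correction, the libraries fitted and leaving out each library.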

Additional observations from a re-analysis of the deposited data

How the results depend on the processing

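In Cbfa2t2_KO against H3.3WT, 5 members were called lower. These became 3 with a pseudocount of 0.1, with median-of-ratios scaling, with quantile normalization and in the fit of all 6 libraries. They also became 3 with a mean of at least 5 FPKM, which left Ring1 and Cbx8 untested and kept the other calls. They became 4 with no filter and with eBayes without trend, 6 with the GC and length correction, and fewer than 5 without any one library. The 1 called higher became 0 with no filter, with eBayes without trend and in the fit of all 6 libraries, and 0 to 1 without one library. In H3.3K27M against H3.3WT the 2 called lower became 1 with a mean of at least 5 FPKM, which leaves Cbx8 untested. They became 3 with no filter, which adds Bmi1, and with the GC and length correction, which adds Rybp. In H3.3K27M against Cbfa2t2_KO the 1 called lower ranged from 0 to 2 without one library. The 1 called higher became 0 with no filter, with the GC and length correction and in the fit of the 4 libraries of the pair, 2 with quantile normalization, and 0 without any one library. Signs turned for 3 differences of H3.3K27M from H3.3WT that had not passed. Ring1 became 0.013 with median-of-ratios scaling, 0.030 with quantile normalization, 0.076 with the GC and length correction and ranged from -0.30 to 0.096 without one library. Pcgf6 became 0.033 with median-of-ratios scaling and 0.085 with quantile normalization, and Phc1 ranged from -0.49 to 0.072 without one library. With quantile normalization the Cbx2 share of the CBX RNA was 57.2% in H3.3WT and 62.2% in Cbfa2t2_KO, in the order given before. The cause was not tested. Over single genes, 415 values under other settings kept direction and side of the threshold, 36 lost the call, 3 gained it and 5 turned sign, and without one library these were 142, 86, 2 and 2. Over all genes, calls fell from 4028 to 1915 (without Cbfa2t2_KO replicate 2), from 3049 to 1007 (without H3.3WT replicate 2) and from 905 to 29 (without Cbfa2t2_KO replicate 2). No paired analysis was possible because the labels give no replicate numbers. With 2 libraries a group and unknown depth, low genes such as Bmi1 are the least certain.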
